A study of Sus scrofa with 8 samples.

Results

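Chromatin modifying and remodelling enzymes are described here in pig oviductal epithelial cells, which line the tube between ovary and uterus, kept in primary culture from 24h to 30 days. The members were all genes whose annotated symbol on the array begins with HDAC, SIRT, KDM, KMT, SETD, CHD, SMARC, DNMT, TET, BRD, ARID, EZH, PRMT, HAT1, KAT or CBX, where SIRT, CHD, TET, BRD, KAT and CBX had to be followed by a digit. This rule found 72 of the 10901 genes with a single symbol. It reads names alone, though it was set with earlier results of these data known. Where a gene had several probe sets, the one with the highest mean was kept. By role the members comprised 6 histone acetyltransferases, 10 lysine methyltransferases, 4 arginine methyltransferases, 12 lysine demethylases, 10 lysine deacetylases, 4 bromodomain and chromobox readers, 9 CHD remodellers, 14 SWI/SNF-type remodellers and ARID proteins and 3 enzymes of DNA methylation. EZH2, HDAC1 and HDAC2 were not among the named genes and were not analysed here.

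Cells came from crossbred Landrace gilts, 45 in the labels, about 9 months old and with regular oestrous cycles. The epithelium was scraped off, dispersed with collagenase I and trypsin, pooled, and grown in DMEM with 10% fetal bovine serum and antibiotics. By the labels all 4 groups shared this source and medium and differed in time: 24h, 7 days, 15 days and 30 days after the start of culture, with 2 arrays each. Whether the 4 times shared a pool of animals or an array batch is not known here. No arm without culture was among the 8 arrays, so the earliest point was itself 24h in vitro. Arrays of 1 time are labelled as biological replicates, without a word on whether each had its own pool of animals. The p-values therefore measure only how far these samples spread, and that spread may be technical.

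DNA in the nucleus is wound on histones, and enzymes add or remove small groups on histone tails that reader proteins then bind. Acetyltransferases and deacetylases set histone acetylation, methyltransferases and demethylases set lysine and arginine methylation, and remodellers use ATP to slide or evict nucleosomes. DNMT1 copies DNA methylation onto the new strand after replication, whereas TET enzymes oxidise methylated cytosine as a step towards its removal. In an epithelium such as that of the oviduct these factors take part in keeping the expression programme of a cell type through division and differentiation.

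Expression is given as log2 values, so a difference of 1 is a 2-fold change. A gene was called changed where the p of limma's moderated test, adjusted by Benjamini-Hochberg across the 10901 genes, was under 0.05, and rises and falls are stated of called genes only. Changes carry their standard error (SE), pooled over the 8 arrays, whose median over the members was 0.12. Replicate arrays correlated at r = 0.992 to 0.997 across genes, which are not independent replicates. Of the 72 members, 64 had a mean above that of the median gene, and 2, DNMT3B and PRMT8, lay among the dimmest 25% of genes.

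The culture itself changed over the month in ways that run alongside the results. The mean log2 level of 8 of 12 epithelium markers measured (among them EPCAM and CLDN7) was 9.95 and 10.01 in the arrays of 24h and 6.65 and 6.63 at 30 days. That mean covers unlike courses: 5 of the 8 were lower at 7 and 15 days and 6 at 30 days, whereas the keratins KRT8 and KRT19, named after their values were seen, were higher at 15 days by 0.79 and 0.48 and not called at 30 days (1 of the 2 was lost at 15 days without any 1 array of 24h or 15 days). The mean of 11 of 12 fibroblast markers (among them COL1A2 and LUM) went from 4.47 and 4.48 to 8.48 and 8.32. At 7 days the epithelium markers stood at 9.24 and 9.14 and the fibroblast markers at 6.81 and 6.80, and at 15 days at 8.07 and 8.21 and at 7.90 and 7.86. Means of 8 of 10 leukocyte markers lay between 3.82 and 4.44 in all arrays, and those of 4 of 8 endothelium markers between 3.62 and 4.34. Those means hide some falls: 0, 2 and 3 leukocyte and 2, 1 and 1 endothelium markers were lower at 7, 15 and 30 days. The lowest change of an endothelium marker was -1.69, -1.31 and -1.58. The leukocyte calls were lost at 15 days without the second array of 24h or the first of 15 days. Those at 30 days were lost without the second of 24h or either of 30 days. Ciliated cell markers, 6 of 12 measured, averaged 4.36 and 4.76 at 24h and between 3.55 and 3.71 later, and 3, 4 and 3 of them were lower at 7, 15 and 30 days (2 of them at 15 days without the second array of 24h, the first of 15 days or either of 30 days). Secretory cell markers, 5 of 8 measured, averaged 7.89 and 8.26 at 24h and between 6.17 and 6.78 later, with members going opposite ways. OVGP1 and MUC1 were lower by 7.49 and 5.56 at 30 days while CP was higher by 4.80, and the counts were 1, 2 and 1 higher and 2, 2 and 3 lower at the 3 times (0 higher at 7 days without the first array of 7 days). These array values have no zero, so no marker could be read as absent. In bulk RNA, fewer cells of a type and less RNA per cell cannot be told apart, and the part of these shifts in the changes of the members was not tested.

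Most changes of the chromatin enzymes were decreases after the first day. At 7 days against 24h, 31 of the 72 members had fallen (43.1%) and 6 had risen (8.33%), while over all genes 15.4% fell and 18.3% rose, 33.7% in either direction. At 15 days 29 members were lower and 11 higher, against 18.1% lower and 19.3% higher of all genes. At 30 days 24 were lower and 12 higher, against 21.1% and 20.2%. The median change of the members was -0.28, -0.21 and -0.16 at 7, 15 and 30 days, while that of all genes was -0.0064, -0.039 and -0.021. Changes of at least 2-fold were called for 6, 9 and 15 members at the 3 times, where 9.89%, 12.8% and 16.7% of all genes passed. Most calls among the members were therefore of changes under 2-fold. The same was true over all genes, where 1078 of 3669, 1396 of 4080 and 1822 of 4494 calls were of at least 2-fold.

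The members are brighter than most genes, and bright genes are called more often. Among the 5450 genes above the median level, 23.0% fell and 30.0% rose at 7 days, and of the 64 members among them 30 fell and 6 rose. At 15 days the same genes had 26.6% lower and 31.5% higher, with 28 and 11 of the 64 members. At 30 days it had 31.2% lower and 32.4% higher, with 22 and 12 of the 64. The share of bright members that fell was therefore above that of bright genes at 7 and 15 days and close to it at 30 days, and the share that rose was below it each time. These shares are descriptions, and no test set the members against other genes. The counts by role and by list below are to be read beside these shares, and none of them was tested against other genes.

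Over the 4 times, limma's F test called 43 of the 72 members (59.7%), where 46.3% of all genes were called. Among genes above the median level the F test called 70.9%, and 42 of the 64 members there. Of the 43 called members 30 had their highest mean at 24h (69.8%), 10 at 30 days, 2 at 7 days and 1 at 15 days. Of all genes called in that test, 38.9% were highest at 24h. In the 3 comparisons with 24h, which share the 24h arrays, 20 members were lower each time and 6 were higher each time. The 6 were SMARCA1, SMARCD3, ARID1B, ARID5A, CHD3 and CBX8. In all 5 comparisons together 49 members were called at least once and 23 never. The matching counts of repeated calls over all genes were not taken, so these counts do not set the members apart from other genes.

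**Figure D1:**
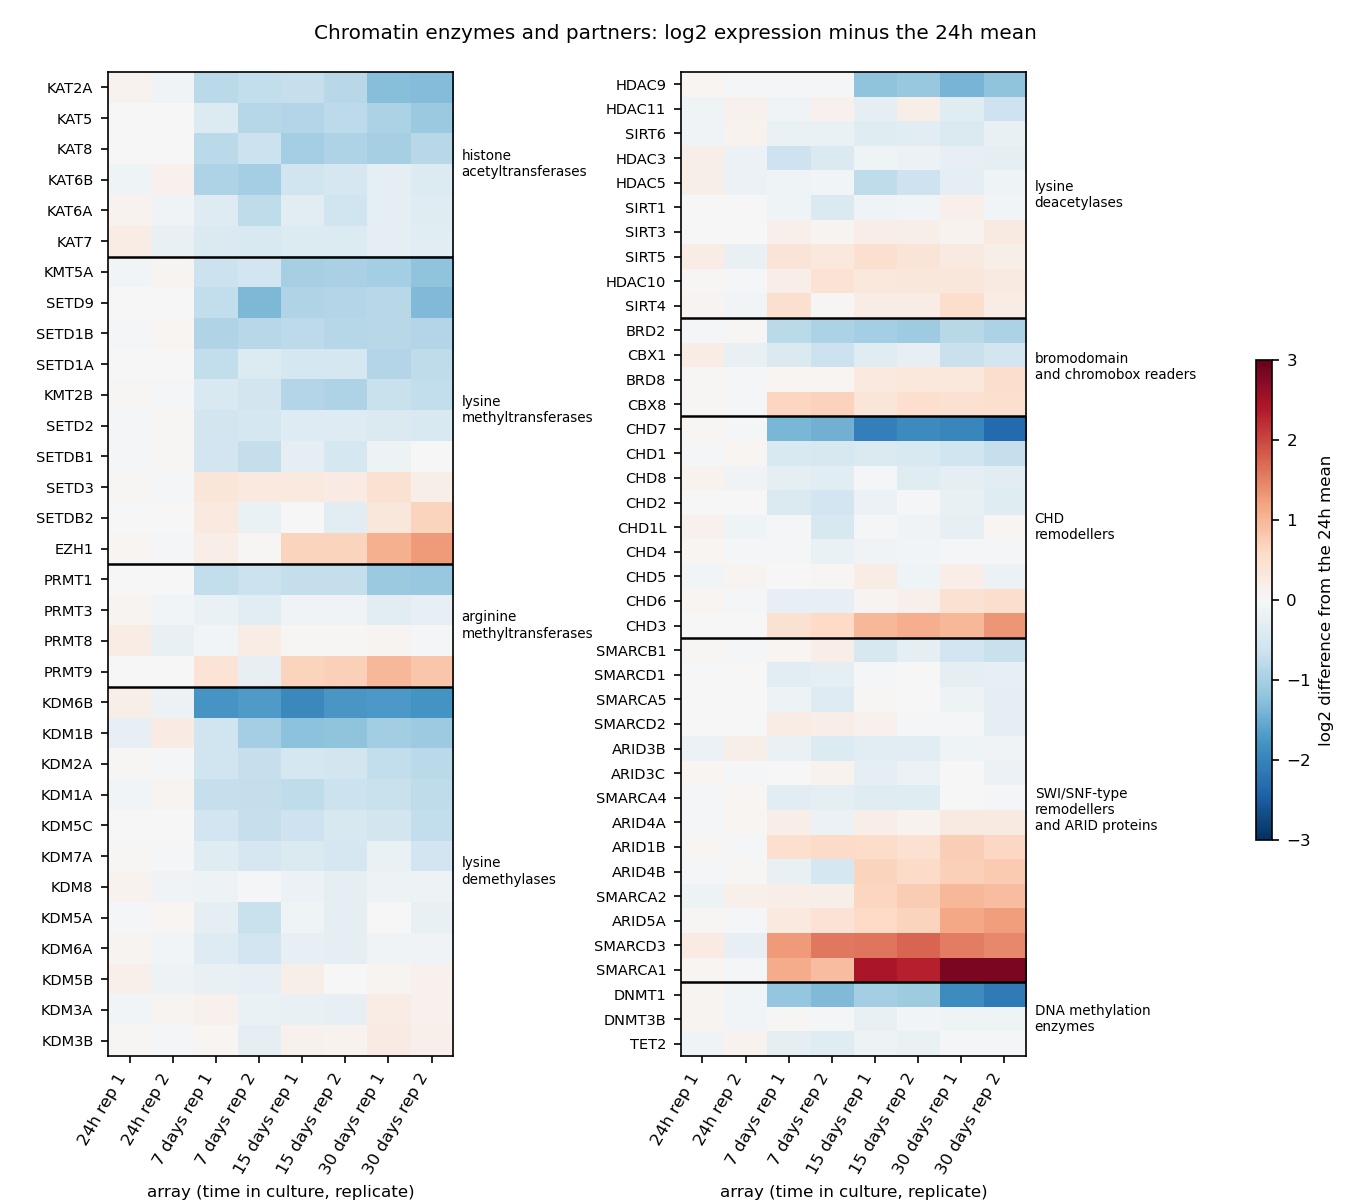
Log2 expression of all 72 members in each of the 8 arrays (columns, by time and replicate) as the difference from the gene's own 24h mean, grouped by role. Blue, lower than at 24h, fills most rows of the acetyltransferases, lysine methyltransferases and demethylases, and red, higher, is strongest in SMARCA1 and SMARCD3.

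The acetyltransferases, which place acetyl groups on histone lysines, were mostly lower. With 1 probe set a gene, all 6 measured fell at 7 and at 15 days, 3 of 6 (KAT2A, KAT5 and KAT8) were lower at 30 days, and none was called higher. These counts include KAT8, whose other probe set was called higher at 15 and 30 days; without KAT8 they are 5, 5 and 2 of 5. Their median change was -0.68, -0.66 and -0.63. KAT2A, the GCN5 catalytic subunit of SAGA-type complexes, read 7.61 and 7.38 at 24h, 6.69 and 6.77 at 7 days, 6.81 and 6.66 at 15 days, and 6.21 and 6.20 at 30 days. Both arrays of 24h were the highest and both of 30 days the lowest, and the arrays of 7 and 15 days overlapped. The fall from 24h to 30 days was 1.29 ± 0.12 (SE; adjusted p = 1.6e-05), and a further fall of 0.53 from 15 to 30 days was called at adjusted p = 0.019. That last call ended without any 1 of the 4 arrays compared (0.072 to 0.185) and with the arrays centred on their medians (0.0578).

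KAT5, or TIP60, is the acetyltransferase of the NuA4 complex and acts in the DNA damage response. Its arrays read 6.48 and 6.49 at 24h, 6.08 and 5.62 at 7 days, 5.61 and 5.69 at 15 days, and 5.55 and 5.38 at 30 days. Every later array lay below both of 24h, with a fall of 1.02 ± 0.15 at 30 days (adjusted p = 0.00039). KAT6B fell most at 7 days, by 0.97 ± 0.12 (adjusted p = 0.00022), and its change at 30 days was -0.34 with an adjusted p of 0.05, not called. Of the 6 decreases at 7 days, only 3 were called without the second array of 7 days, those of KAT5, KAT6A and KAT7 being lost (adjusted p = 0.0556, 0.113 and 0.116). At 15 days 4 to 6 were called when 1 array was left out: KAT6A lost its call without the first array of 24h or the second of 15 days (0.186 and 0.256) or without either of 30 days (0.0569), KAT7 without any array but the second of 24h (up to 0.307) and KAT6B without the first of 15 days (0.0512).

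KAT8, or MOF, which acetylates histone H4 at lysine 16, gave opposite readings from its pair of probe sets. The brighter one, used throughout, changed by -0.73, -0.97 and -0.91 at 7, 15 and 30 days. The dimmer one changed by 0.23, 0.54 and 0.55, and the last 2 of these were called (adjusted p = 0.032 and 0.026). With the mean of both probe sets KAT8 was not called at any time (adjusted p = 0.12, 0.159 and 0.23), so its direction depends on the probe set.

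The lysine methyltransferases also were mostly lower. Of 10 measured, 7 fell at 7 and at 15 days and 6 at 30 days, with 1, EZH1, higher at 15 and 30 days. The median change was -0.55, -0.46 and -0.57. The group holds 3 catalytic subunits of complexes that methylate histone H3 at lysine 4 (KMT2B, SETD1A and SETD1B), and all of them were lower at each time. SETD1B changed by -0.86, -0.82 and -0.86 at the 3 times, KMT2B by -0.51, -0.90 and -0.71, and SETD1A by -0.57, -0.52 and -0.82. SETD2, which trimethylates lysine 36 of H3 in transcribed genes, changed by -0.53, -0.38 and -0.44, all called. Without the first array of 15 days the calls of SETD1A (adjusted p = 0.0564) and SETD2 (0.077) at 15 days were lost. The SETD2 call there also needed the second array of 15 days (0.0824) and the second of 24h (0.0575).

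KMT5A, which monomethylates histone H4 at lysine 20, read 8.73 and 8.88 at 24h, 8.16 and 8.24 at 7 days, 7.81 and 7.84 at 15 days, and 7.79 and 7.60 at 30 days. Each time lay below the one before it with no overlap of arrays, and the fall at 30 days was 1.11 ± 0.12 (adjusted p = 3.7e-05). SETD9, a SET domain protein, read 5.35 and 5.34 at 24h and 4.60 and 4.004, 4.44 and 4.46, and 4.52 and 4.01 at the later times in order. All later arrays lay below 24h and overlapped one another, and its decreases of 1.04, 0.89 and 1.08 were called at adjusted p = 0.0032, 0.0068 and 0.0018. SETDB1, which methylates lysine 9 of H3, was lower by 0.64 at 7 days and by 0.41 at 15 days (adjusted p = 0.0032 and 0.029), and at 30 days its change was -0.08. Its call at 15 days did not hold without either array of 24h (0.0689 and 0.107) or without the second of 15 days (0.234).

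EZH1, a catalytic subunit of Polycomb repressive complex 2 (PRC2), went the other way. Its values were 6.56 and 6.46 at 24h, 6.72 and 6.55 at 7 days, 7.18 and 7.18 at 15 days, and 7.58 and 7.79 at 30 days. The arrays of 24h and 7 days overlapped, and those of 15 and then 30 days lay above them. It was higher than at 24h by 0.67 ± 0.12 at 15 days and by 1.18 ± 0.12 at 30 days (adjusted p = 0.0015 and 3.1e-05), the latter a 2.26-fold rise. The steps from 7 to 15 days (0.55) and from 15 to 30 days (0.50) were called at 0.015 and 0.026, but not without either array of 15 days (up to 0.108 and 0.161) nor, in turn, the second of 7 days (0.0893) or of 30 days (0.194). SETD3, best known as an actin histidine methyltransferase, and SETDB2 were not called at any time.

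Of the partners of these enzymes, 6 PRC2 genes were measured outside the name rule, with 0 higher and 2 lower at 7 days, 1 and 2 at 15 days, and 0 and 3 at 30 days. The 2 lower at 7 days became 1 without any array but the first of 7 days, and those at 15 days without any 1 array of 24h or 15 days. The 1 higher was lost without the second array of 24h or either of 15 days. JARID2, which helps to recruit PRC2, read 6.92 and 6.89 at 24h and between 5.72 and 5.99 in all later arrays. It changed by -1.11, -0.95 and -1.04 (adjusted p = 5.4e-05, 9.8e-05 and 4.1e-05). Among 6 partners in the complexes that methylate lysine 4 of H3, 1 was higher and 2 lower at 7 days, and 0 were higher and 2 and then 3 lower at 15 and 30 days. The 2 went to 0 without the first array of 15 days, the 3 to 1 without the first of 24h, and the 1 higher to 0 without the second of 24h or the first of 7 days. HCFC1, a scaffold of these complexes, changed by -0.66, -0.51 and -0.79, all called. Among 6 PRC1 genes, 1 was lower each time and 1 higher at 30 days, though not without the second array of 24h or the first of 30 days. RYBP, a subunit of variant PRC1, was lower by 0.66, 0.74 and 0.57. Of 11 further histone methyltransferases, 1, 1 and 1 were higher and 4, 2 and 5 lower. The 4 became 2 without the first array of 24h or of 7 days, and the 2 became 1 without the first of 24h or either of 15 days. The 1 higher was lost at 7 days without the second array of 24h or of 7 days, and at 15 days without the second of 24h or the first of 15 days. DOT1L, the methyltransferase of lysine 79 of H3, fell by 1.16, 1.47 and 1.62 (adjusted p = 0.00013, 2.1e-05 and 7.3e-06).

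Only 4 arginine methyltransferases were measured, and 2 of them changed, in opposite directions. PRMT1, the main asymmetric arginine methyltransferase of mammalian cells, read 9.65 and 9.66 at 24h, 8.91 and 9.02 at 7 days, 8.94 and 8.93 at 15 days, and 8.54 and 8.52 at 30 days. The groups of 24h and 30 days were the highest and the lowest with no overlap, and the decrease at 30 days was 1.13 ± 0.10 (adjusted p = 1.6e-05). From 15 to 30 days it fell by 0.41 (0.036), a call that ended without any 1 of the 4 arrays compared (0.108 to 0.219) and under median centring (0.123). PRMT9, which symmetrically methylates a splicing factor, read 5.46 and 5.47 at 24h, 5.88 and 5.23 at 7 days, 6.14 and 6.19 at 15 days, and 6.47 and 6.29 at 30 days. The arrays of 7 days lay on both sides of those of 24h, and all later ones were higher, by 0.70 ± 0.19 at 15 and 0.92 ± 0.19 at 30 days (adjusted p = 0.014 and 0.0027). The call at 15 days was lost without any 1 array of 24h or 15 days (0.0502 to 0.0759). PRMT3 and PRMT8 were not called.

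The lysine demethylases, which remove methyl groups from histone lysines, had 8 of 12 members lower at 7 days, 6 at 15 days and 6 at 30 days, and none higher. Their median change was -0.47, -0.37 and -0.27. KDM6B, or JMJD3, removes the Polycomb mark from lysine 27 of H3 and is inducible in many cell types. It read 7.42 and 7.06 at 24h, 5.48 and 5.53 at 7 days, 5.31 and 5.49 at 15 days, and 5.51 and 5.46 at 30 days. All 6 later arrays lay far below both of 24h and overlapped one another. Its decreases were 1.74, 1.84 and 1.76, each with an SE of 0.14 (adjusted p = 1.4e-05, 5.9e-06 and 5.4e-06), and its dimmer probe set changed by -1.67, -1.68 and -1.87. At 30 days the level was 3.38-fold lower than at 24h.

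KDM6A, the related demethylase of the same mark, had a smaller change, lower by 0.48 at 7 days (adjusted p = 0.0096), and its values of -0.26 and -0.10 at 15 and 30 days were not called. KDM1A (LSD1), which acts on mono- and dimethylated lysine 4, was lower by 0.71 each time, and its relative KDM1B read 6.68 and 7.19 at 24h, 6.34 and 5.93 at 7 days, 5.70 and 5.73 at 15 days, and 5.88 and 5.84 at 30 days. For KDM1B all later arrays lay below 24h, with decreases of 0.80, 1.22 and 1.07 (adjusted p = 0.0072, 0.0005 and 0.0009). KDM2A, a lysine 36 demethylase, and KDM5C, a lysine 4 demethylase, were also lower at each time, by 0.65, 0.54 and 0.77 and by 0.63, 0.55 and 0.65. The dimmer probe set of KDM5C changed less, by -0.35, -0.20 and -0.38, and was not called at 15 days (adjusted p = 0.201). KDM3A, KDM3B, KDM5B and KDM8 were not called. KDM8 was among the 3 members with the smallest range of means of those above the median level, at 5.59 and 5.37, 5.32 and 5.45, 5.30 and 5.19, and 5.33 and 5.33 in order of time.

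The number of demethylases lower at 7 days went from 8 to 4 without the second array of 7 days, which ended the calls of KDM1B (adjusted p = 0.0591), KDM5A (0.235), KDM6A (0.0588) and KDM7A (0.146). At 15 days it went to 4 without the first array of 15 days, which ended those of KDM5C (0.0527) and KDM7A (0.078). KDM7A at 30 days lost its call in 7 of 8 such fits (up to 0.316). In a list of 6 histone demethylases and related genes outside the name rule, 4, 3 and 4 were lower at 7, 15 and 30 days and 0 higher. The first of these counts became 2 without the first array of 7 days. The list includes JARID2, which is named above as a PRC2 partner and was lower each time, so its falls are counted in both lists. JMJD1C, a member of the KDM3 family by sequence, read 9.35 and 9.55 at 24h and between 8.24 and 8.74 later, with decreases of 1.17, 1.01 and 0.72 (adjusted p = 4.6e-05, 8.2e-05 and 0.00055).

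**Figure D2:**
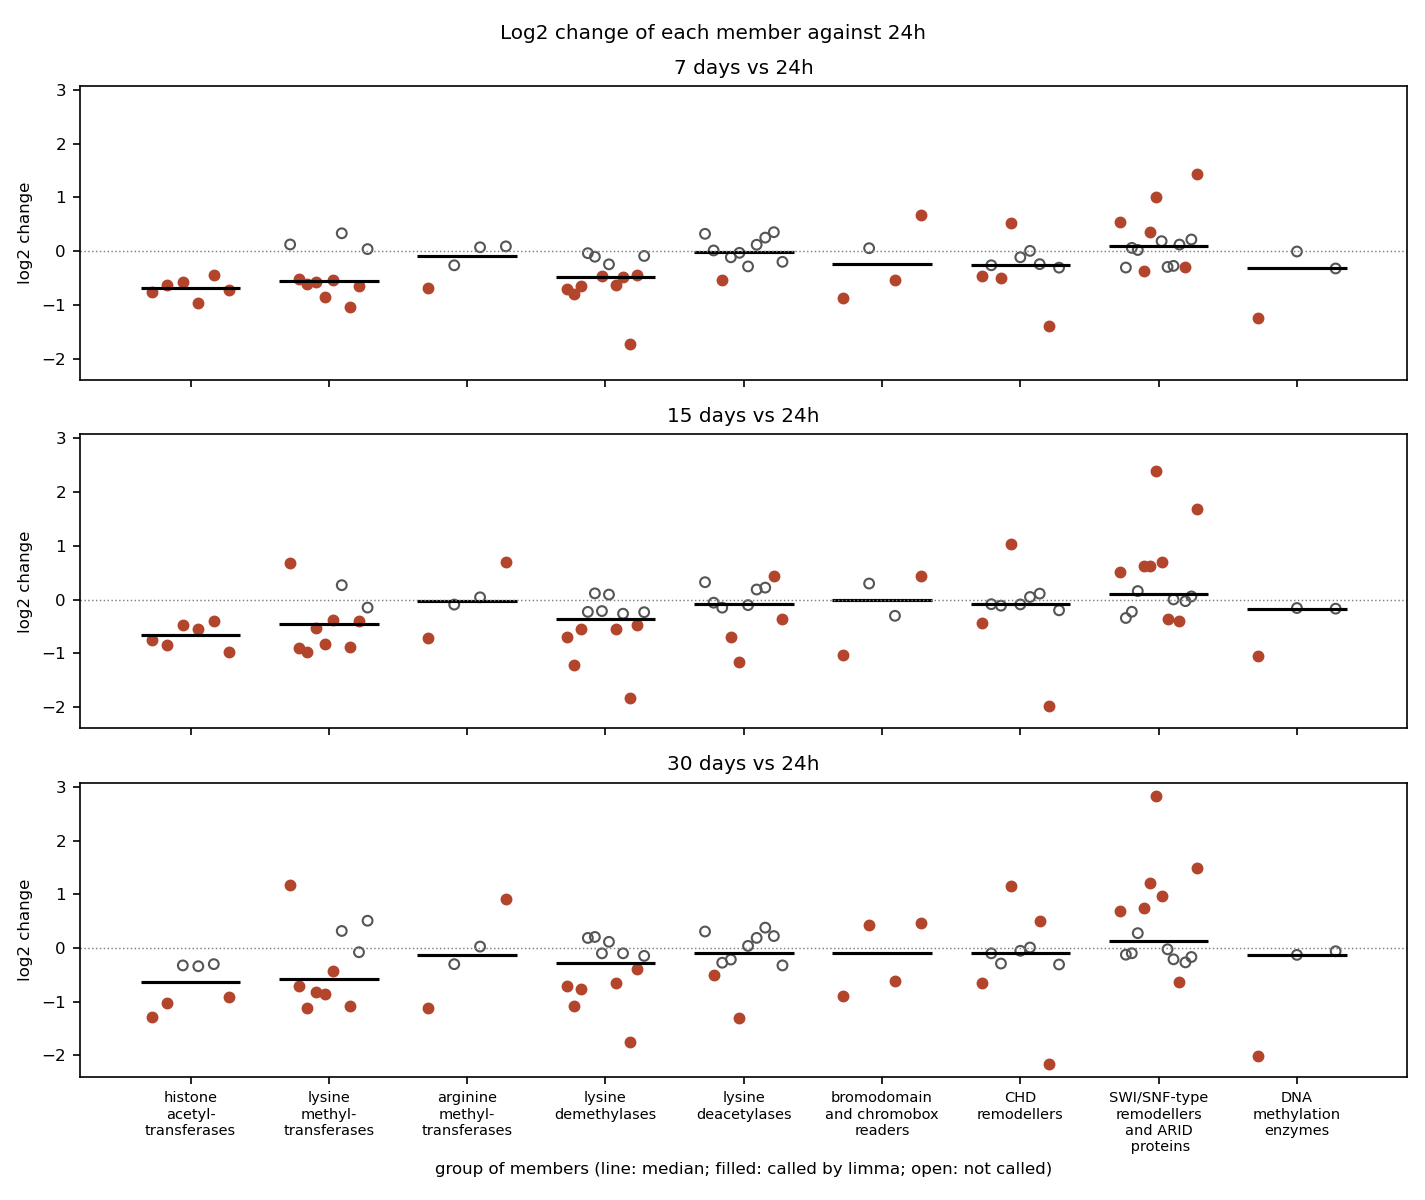
Log2 change of each member against the 24h mean at 7, 15 and 30 days, by role (each point is 1 gene, filled where limma called it, and the line is the median of the role). Acetyltransferases lie below 0 throughout, whereas SWI/SNF-type remodellers and ARID proteins reach from -0.38 to 1.43 at 7 days and from -0.63 to 2.83 at 30 days.

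Deacetylases take acetyl groups off lysines. Of 10 measured, 1 was lower at 7 days, 3 were lower and 1 higher at 15 days, and 2 were lower at 30 days, with medians of -0.01, -0.08 and -0.09. The shares lower were 10.0%, 30.0% and 20.0%, beside 23.0%, 26.6% and 31.2% of all genes above the median level. The largest change was a late fall of HDAC9, a class IIa enzyme that acts with MEF2 factors. It read 9.81 and 9.71 at 24h and 9.74 and 9.72 at 7 days, then 8.56 and 8.62 at 15 days and 8.36 and 8.56 at 30 days. The first 4 arrays and the last 4 formed ranges more than 1 log2 unit apart, and between 7 and 15 days the fall was 1.14 ± 0.11 (adjusted p = 0.00018), or 2.20-fold. That call held whichever array was left out.

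HDAC5, of the same class, read 7.13 and 6.78 at 24h, 6.81 and 6.86 at 7 days, 6.18 and 6.33 at 15 days, and 6.66 and 6.82 at 30 days. Its arrays of 15 days were the lowest, by 0.70 ± 0.14 against 24h (adjusted p = 0.0029), and those of 30 days overlapped 24h. The fall of 0.58 from 7 to 15 days (0.022) lost its call without any 1 of the 4 arrays compared (0.064 to 0.173). HDAC3, the catalytic subunit of NCoR complexes, was lower by 0.53 at 7 days (0.014), though not without the first array of 24h (0.0973) or of 7 days (0.0869). Among the NAD-dependent sirtuins SIRT5 was higher and SIRT6 lower at 15 days, by 0.43 and 0.36 (0.048 and 0.038), and SIRT1, SIRT3 and SIRT4 were not called, nor was HDAC10. Neither held under leave-out of 1 array: SIRT5 lost its call in 7 of 8 fits (up to 0.319) and SIRT6 without the second array of 24h (0.196) or either of 15 days (0.163 and 0.133). The rise of SIRT5 was also lost under median centring (0.177). HDAC11, lower by 0.50 at 30 days (0.048), lost its call in 5 of 8 such fits (up to 0.258).

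SIRT3, the main deacetylase of mitochondria, was another of those 3 steady members above the median level, at 5.88 and 5.85, 6.02 and 5.95, 6.08 and 6.03, and 5.98 and 6.13 in order of time. Of 11 partners in deacetylase complexes, 3, 2 and 3 were lower at 7, 15 and 30 days and 0, 0 and 1 higher. The 3 at 7 days became 1 without the first array of 24h or the second of 7 days, the 2 at 15 days became 1 without the first of 15 days, and the 1 higher went to 0 without the first of 24h. GATAD2A, a subunit of the NuRD complex, was lower by 0.58, 0.71 and 1.22 (adjusted p = 0.0028, 0.00073 and 1.5e-05). In the 14 acetyltransferases and partners outside the name rule, 7, 6 and 5 were lower and 2, 1 and 5 higher. Without the second array of 15 days the 6 became 2, without the first of 24h or the second of 30 days the 5 higher became 3, and the 2 and 1 higher went to 0 without the first of 24h and without either of 15 days. EPC1, a scaffold subunit of the NuA4 complex, was lower by 0.74, 0.55 and 0.46 (adjusted p = 0.0015, 0.0069 and 0.015).

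Bromodomains bind acetylated lysines and the chromodomains of CBX proteins bind methylated ones. Of the 4 such readers, 1 was higher and 2 lower at 7 days, 1 and 1 at 15 days, and 2 and 2 at 30 days. BRD2, a BET protein that binds acetylated histones at active genes, read 10.04 and 10.11 at 24h, 9.26 and 9.14 at 7 days, 9.07 and 9.01 at 15 days, and 9.23 and 9.13 at 30 days. Every later array lay below both of 24h, with decreases of 0.88, 1.04 and 0.90 (adjusted p = 0.00021, 5.4e-05 and 0.00011). CBX8, a PRC1 subunit, read 4.97 and 4.89 at 24h, 5.59 and 5.63 at 7 days, 5.30 and 5.45 at 15 days, and 5.39 and 5.41 at 30 days. All of its later arrays lay above 24h, by 0.68, 0.44 and 0.46 (adjusted p = 0.00094, 0.009 and 0.0059). The call at 15 days was lost without the second array of 15 days (0.0909) and under median centring (0.0759). CBX1, a heterochromatin protein, was lower by 0.54 at 7 and by 0.62 at 30 days (0.027 and 0.011), and BRD8 was higher by 0.42 at 30 days (0.014). The CBX1 calls did not hold without the first array of 24h (0.183 and 0.0782), the second of 7 days (0.148) or the first of 30 days (0.0684), nor that of BRD8 without the second array of 24h (0.0643) or of 30 days (0.11).

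Among 11 readers outside the name rule, 5, 4 and 5 were lower and 1, 1 and 1 higher. These counts include BAZ1A, which is counted again among the other remodellers below, so the lists are not separate. The 5 at 7 days became 3 without the first array of 24h or any 1 of 7 or 15 days, and the 1 higher there was lost without the first of 24h or of 7 days. ATAD2, a bromodomain ATPase, read 7.65 and 7.57 at 24h, 7.80 and 7.47 at 7 days, 7.41 and 7.35 at 15 days, and 5.21 and 5.31 at 30 days. It was not called at 7 or 15 days and fell by 2.12 ± 0.13 from 15 to 30 days (adjusted p = 1.2e-05). ATAD2B, its paralog, was lower from 7 days, by 1.26, 1.11 and 1.00 at the 3 times (6.4e-05, 0.0001 and 0.00015).

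CHD proteins are chromodomain ATPases that move nucleosomes. Of 9 measured, 1 was higher and 3 lower at 7 days, 1 and 2 at 15 days, and 2 and 2 at 30 days. The shares lower were 33.3%, 22.2% and 22.2%, beside 23.0%, 26.6% and 31.2% of all genes above the median level. CHD7, the remodeller mutated in CHARGE syndrome, had the largest decrease of all 72 members in the comparison of 30 days with 24h. It read 8.12 and 7.998 at 24h, 6.69 and 6.62 at 7 days, 6.02 and 6.14 at 15 days, and 6.09 and 5.71 at 30 days. Both arrays of 7 days lay below 24h and above all of the later 4, and 15 and 30 days overlapped. The decreases from 24h were 1.40, 1.98 and 2.15, each with an SE of 0.14 (adjusted p = 5.4e-05, 4e-06 and 1.5e-06), and at 30 days the level was 4.45-fold lower. The step from 7 to 15 days, a fall of 0.58 (0.024), was not called without any 1 of the arrays compared (0.0788 to 0.177).

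CHD3 and CHD4 are alternative ATPases of the NuRD complex, and only CHD3 was called. CHD3 read 7.08 and 7.08 at 24h, 7.53 and 7.67 at 7 days, 8.07 and 8.18 at 15 days, and 8.08 and 8.40 at 30 days. All of its later arrays lay above 24h, by 0.52, 1.04 and 1.16 (adjusted p = 0.012, 0.00016 and 6e-05), and its other probe set gave 0.44, 1.00 and 1.11. The call at 7 days was lost without the second array of 7 days (0.0704) and under median centring (0.0719), and that of 15 against 7 days (0.52, 0.026) without any 1 of the 4 arrays compared (0.0594 to 0.181). CHD4 had the smallest range of means of the members above the median level: 9.09 and 8.97 at 24h, 9.00 and 8.84 at 7 days, 8.94 and 8.94 at 15 days, and 8.99 and 8.97 at 30 days. Its change at 30 days was -0.05, with a 95% interval of -0.30 to 0.20. Whether CHD3 and CHD4 differed in their change was not tested. CHD1, which acts at transcribed genes, was lower by 0.47, 0.44 and 0.65, with the call at 15 days lost without either array of 15 days (0.0545 and 0.0587). CHD2 was lower at 7 days by 0.50 (0.0065), CHD6 was higher at 30 days by 0.49 (0.0038), and CHD1L, CHD5 and CHD8 were not called.

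The SWI/SNF-type remodellers and ARID proteins, the largest of the groups, had more calls of increase than of decrease. Of 14 measured, 4 were higher and 2 lower at 7 days, 6 and 2 at 15 days, and 6 and 1 at 30 days, with medians of 0.09, 0.11 and 0.12. The 2 lower went to 0 at 7 days without any array but the first of 24h or of 7 days, and at 15 days without the second of 24h or the first of 15 days. The shares called higher were 28.6%, 42.9% and 42.9%, beside 30.0%, 31.5% and 32.4% of all genes above the median level. Changes above 0, called or not, numbered 9, 9 and 7 of the 14. SMARCA1, the ISWI ATPase SNF2L, had the largest change of any member. It read 5.16 and 5.03 at 24h, 6.20 and 6.02 at 7 days, 7.54 and 7.44 at 15 days, and 7.92 and 7.93 at 30 days. Each time lay above the one before it with no overlap, and the rise from 24h was 1.01, 2.39 and 2.83, each with an SE of 0.12 (adjusted p = 0.00012, 3.6e-07 and 6.9e-08). The level at 30 days was 7.10-fold that at 24h. Between 7 and 15 days alone it rose 2.61-fold (8e-05), and between 15 and 30 days by 0.43 (0.044). The last of these calls ended without any 1 of the 4 arrays compared (0.127 to 0.282). SMARCA5, the other ISWI ATPase, was not called, with changes of -0.27, 0.00 and -0.21.

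SMARCD3, the BAF60C subunit of SWI/SNF complexes known from muscle and heart, rose early. It read 4.78 and 4.30 at 24h, 5.82 and 6.11 at 7 days, 6.15 and 6.28 at 15 days, and 6.07 and 5.98 at 30 days. All later arrays lay above both of 24h, those of 7 and 30 days overlapping, and the increases were 1.43, 1.68 and 1.49, each with an SE of 0.17 (adjusted p = 0.00014, 3.6e-05 and 5.8e-05). Of its paralogs, SMARCD1 was lower by 0.30 at 7 days (0.046), a call lost without any 1 of the 8 arrays (0.0615 to 0.142), and SMARCD2 was not called.

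SMARCA2 and SMARCA4 are the alternative ATPases, BRM and BRG1, of SWI/SNF complexes. SMARCA2 read 6.44 and 6.76 at 24h, 6.79 and 6.78 at 7 days, 7.24 and 7.37 at 15 days, and 7.59 and 7.53 at 30 days. Its arrays of 15 and then 30 days lay above all earlier ones, with increases of 0.71 ± 0.13 and 0.96 ± 0.13 from 24h (adjusted p = 0.0018 and 0.00021). SMARCA4 was lower by 0.36 at 15 days (0.022), which did not hold without the second array of 24h (0.11) or either of 15 days (0.11 and 0.107), and its change at 30 days was -0.03. SMARCB1, the core subunit SNF5, was lower by 0.39 at 15 and by 0.63 at 30 days (0.024 and 0.0016). Its call at 15 days was lost without either array of 24h (0.0927 and 0.0576) or the first of 15 days (0.201).

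ARID proteins bind DNA through an AT-rich interaction domain, and of the 6 measured ARID3B, ARID3C and ARID4A were not called. ARID5A, which also binds and stabilises messenger RNAs of inflammatory genes, read 5.17 and 5.09 at 24h, 5.42 and 5.56 at 7 days, 5.73 and 5.79 at 15 days, and 6.30 and 6.39 at 30 days. Each time lay above the one before it, and the rise at 30 days was 1.22 ± 0.11 (adjusted p = 1.4e-05). Its call at 7 days (0.36, adjusted p = 0.03) ended under both rescalings of the arrays (0.213 and 0.242) and without either array of 24h, the second of 7 days or either of 15 days (0.0559 to 0.13). ARID1B, a SWI/SNF subunit, was higher by 0.54, 0.51 and 0.68 (0.0037, 0.0049 and 0.00064), its call at 15 days ending without the first array of 15 days (0.051). ARID4B, of the SIN3 deacetylase complex, read 7.29 and 7.35 at 24h, 7.09 and 6.80 at 7 days, 7.99 and 7.90 at 15 days, and 8.03 and 8.10 at 30 days. It was lowest at 7 days and then rose by 1.00 ± 0.12 from 7 to 15 days (0.00067), a call kept whichever array was left out, while its fall of 0.38 at 7 days (0.042) was lost in 7 of 8 such fits (up to 0.227).

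Calls among the partners of these remodellers were mostly decreases. SWI/SNF partners were lower in 37.5%, 25.0% and 25.0% at 7, 15 and 30 days, and other remodellers in 50.0%, 33.3% and 38.9%. Of genes above the median level 23.0%, 26.6% and 31.2% were lower, so the SWI/SNF partners were near or below that share at 15 and 30 days. Of 8 SWI/SNF subunits outside the name rule, 3, 2 and 2 were lower at the 3 times and 0, 0 and 1 higher. The 2 at 15 days became 1 without either array of 15 days, and the 1 higher was lost without the first of 24h or the second of 30 days. Fewer than the 3 at 7 days were lower without any array but the first of 24h. ACTL6A, an actin-related subunit, was lower by 0.73, 0.64 and 0.85 (adjusted p = 0.0016, 0.003 and 0.0004). Of 18 other remodellers, 9, 6 and 7 were lower and 0, 1 and 1 higher, the 1 at 15 days lost without the second array of 24h or the first of 15 days, and that at 30 days without the second of 24h or of 30 days. The 9 lower at 7 days became fewer whichever array was left out. BAZ1A, a partner of SMARCA5, read 8.60 and 8.88 at 24h, 7.51 and 7.38 at 7 days, 7.31 and 7.23 at 15 days, and 6.72 and 6.70 at 30 days, a fall of 2.03 ± 0.13 over the month (1e-06). RUVBL2, an ATPase of the INO80 and NuA4 complexes, was lower by 0.74, 0.96 and 1.17 (0.0014, 0.00021 and 4.3e-05).

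**Figure D3:**
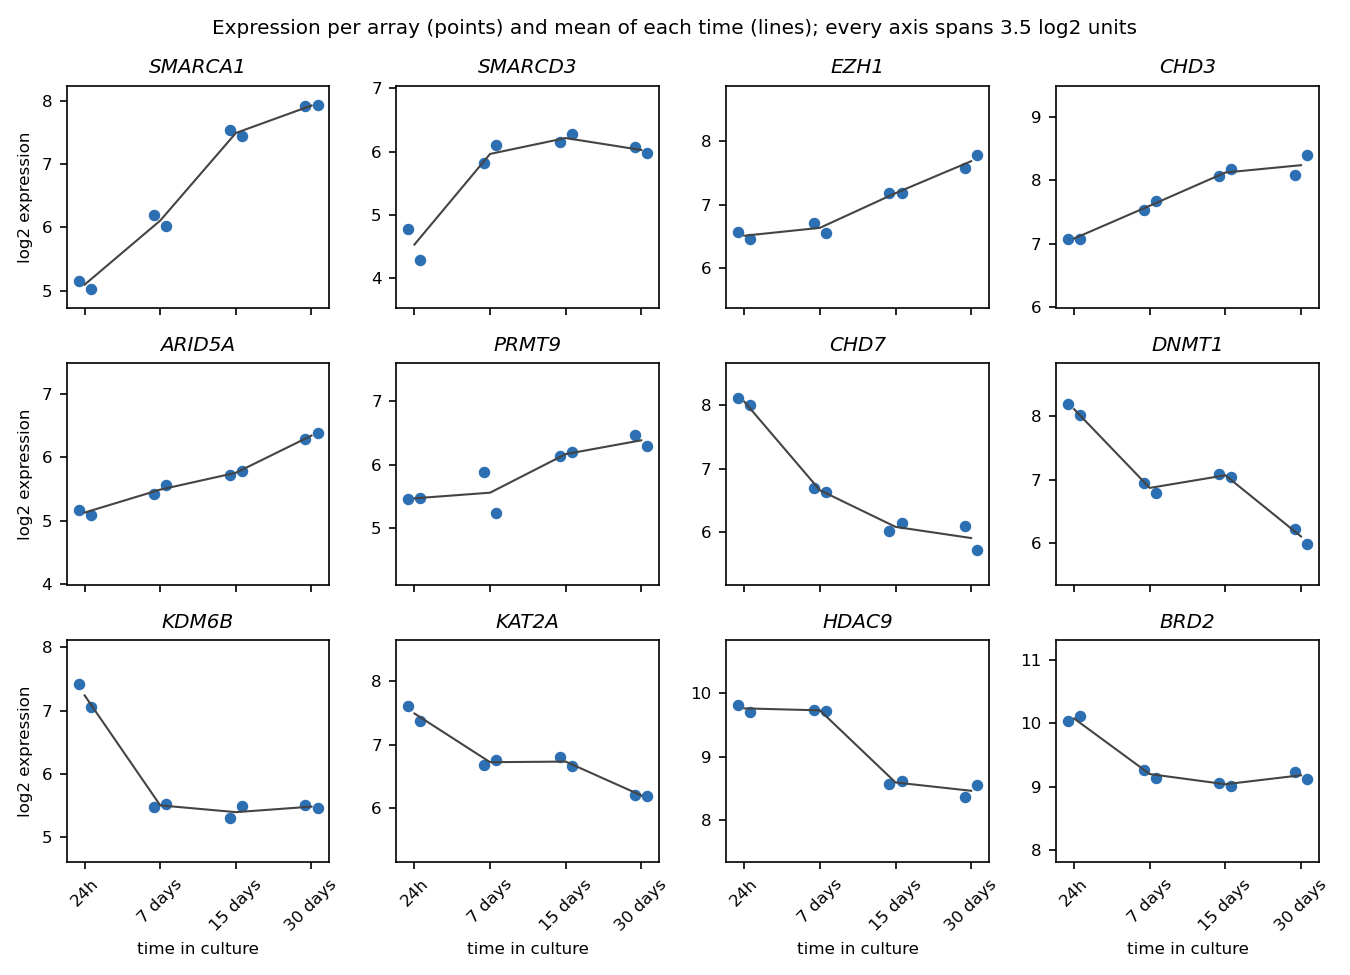
Log2 expression of 12 members in each array (points) with the mean of each time (lines), on axes of equal span, with the 4 times spaced evenly and not to scale. SMARCA1 climbs from 5.16 and 5.03 at 24h to 7.92 and 7.93 at 30 days, KDM6B and BRD2 drop by 7 days and stay low, and HDAC9 drops between 7 and 15 days.

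DNMT1, DNMT3B and TET2 were the measured enzymes of DNA methylation, and DNMT1 alone was called. DNMT1 read 8.20 and 8.03 at 24h, 6.95 and 6.80 at 7 days, 7.10 and 7.04 at 15 days, and 6.23 and 5.98 at 30 days. It fell in 2 steps, with both arrays of 7 and of 15 days between those of 24h and 30 days. The decreases from 24h were 1.24, 1.04 and 2.01, each with an SE of 0.13 (adjusted p = 6.2e-05, 0.00013 and 1.2e-06), and its other probe set gave -1.21, -1.05 and -2.02. From 15 to 30 days it fell by 0.97 ± 0.13 (0.001), the only member call of that comparison kept whichever array was left out. At 30 days DNMT1 was 4.02-fold lower than at 24h. TET2, which oxidises methylated cytosine, changed by -0.32, -0.17 and -0.06. DNMT3B, a methyltransferase for unmethylated DNA, lay between 3.25 and 3.56 in all arrays, among the dimmest 25% of genes, where a change might not show.

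UHRF1, which guides DNMT1 to newly copied DNA, read 6.98 and 6.39 at 24h, 5.89 and 6.11 at 7 days, 5.71 and 5.81 at 15 days, and 3.98 and 3.96 at 30 days. Like DNMT1 it had its lowest arrays at 30 days, with a fall of 2.71 ± 0.18 from 24h (adjusted p = 1.6e-06) and of 1.79 from 15 to 30 days (0.00018). In the whole list of 7 DNA methylation readers and repair genes, 1, 2 and 3 were lower and 1 higher each time. The 1 lower at 7 days was lost without the first array of 24h or of 7 days, and the 2 at 15 days became 1 without the first of 24h or of 15 days. HELLS, a remodeller needed for DNA methylation, was lower by 1.23 at 7 days and by 2.31 at 30 days (0.0024 and 2.7e-05).

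Replication and division genes moved in the same period. The mean of 12 of 30 DNA replication genes measured was 6.28 and 6.14 at 24h, 6.01 and 5.76 at 7 days, 5.69 and 5.64 at 15 days, and 4.85 and 4.80 at 30 days. Of these genes 4, 5 and 11 were lower at 7, 15 and 30 days, and 9 fell from 15 to 30 days, or 4 without the first array of 15 days. The mean of 18 of 30 mitosis genes was 4.89 and 5.47 at 24h, 7.36 and 7.09 at 7 days, 7.12 and 6.98 at 15 days, and 4.73 and 4.57 at 30 days. Of the mitosis genes 17 and 16 were higher at 7 and 15 days, and 17 fell from 15 to 30 days. Thus DNMT1 fell at 7 days while the mitosis genes rose, and fell again at 30 days while both lists fell. The part of cell division in the DNMT1 values was not tested.

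**Figure D4:**
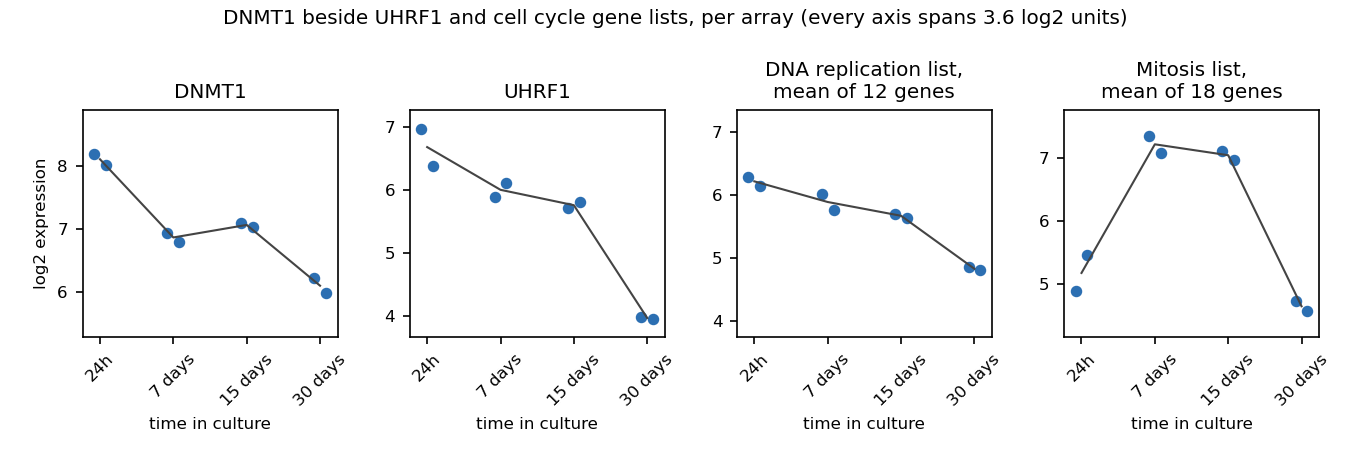
Log2 expression of DNMT1 and UHRF1 and the mean log2 expression of the DNA replication and mitosis lists in each array (points), with the mean of each time (lines), on axes of equal span. All 4 are lowest at 30 days, and the mitosis list alone is highest at 7 days.

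Of 10 histone chaperones, which hand histones to DNA, 5, 4 and 8 were lower at 7, 15 and 30 days, and 1, 1 and 0 higher. The 5 became 3 without the first array of 24h or the second of 7 days, and the 4 became 2 without the second of 15 days. ASF1B, the chaperone linked to cell division, was the one that rose, by 1.21 at 7 and 1.08 at 15 days, and it was lower than at 24h by 1.53 at 30 days (adjusted p = 0.0011, 0.0019 and 0.00016). CHAF1B, a subunit of the assembly factor that acts at replication forks, was lower at 30 days by 1.69 (0.00014). The chaperone SET, an inhibitor of histone acetylation, was lower by 0.69, 0.66 and 0.95 (0.0014, 0.0015 and 0.00012).

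Between consecutive later times few members changed. From 7 to 15 days 5 rose (SMARCA1, ARID4B, SMARCA2, CHD3 and EZH1) and 5 fell (HDAC9, HDAC5, CHD7, KMT2B and SMARCB1), 13.9% of the members where 13.3% of all genes were called (6.58% higher and 6.72% lower). Only SMARCA1, ARID4B and HDAC9 kept their calls whichever array was left out. The others were lost without 1 of the 7-day or 15-day arrays: SMARCA2 with any of the 4 (0.083 to 0.19), KMT2B also with any of the 4 (0.0791 to 0.215) or with either of 30 days (0.0546), and SMARCB1 without the second of 7 days (0.0971) or the first of 15 days (0.177). From 15 to 30 days 3 rose (SMARCA1, ARID5A and EZH1) and 3 fell (DNMT1, KAT2A and PRMT1), 8.33% where 10.1% of all genes were called (3.94% higher and 6.11% lower). Changes of at least 2-fold numbered 2 and 0 in these comparisons, where 3.62% and 3.27% of all genes passed. ARID5A there lost its call without either array of 15 days (0.0889 and 0.0568) or the second of 30 days (0.069). With the arrays centred on their medians this split was 9 higher and 1 lower, and with a further quantile normalization 7 and 3.

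Directions against 24h also carry a limit from scaling. The deposited values equalise the arrays over all probe sets, and the median of the named genes still stood 0.16, 0.17 and 0.04 above 24h at 7, 15 and 30 days. Relative to that median the decreases are larger and the increases smaller: with each array centred on its median 41 members were lower and 4 higher at 7 days, 37 and 9 at 15 days, and 29 and 12 at 30 days. The median change per gene over all genes was -0.0064, -0.039 and -0.021, so the typical gene did not rise as the array medians did. The centred counts are therefore an alternative scaling and not a correction, and which scaling is nearer was not tested. Leaving out 1 array gave 21 to 29 members lower and 4 to 7 higher at 7 days. At 15 days the count of 29 lower went to 19 without the first array of 15 days.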

How the data were processed

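Total RNA of 8 samples, 2 for each of 4 times, was amplified and hybridised to 1-colour Affymetrix arrays, per the labels' protocols. Each deposited value is the log2 expression of 1 probe set on 1 array, made by the authors with RMA per the submitters' processing notes. RMA corrects background, gives all arrays a common distribution and summarises probes, so a shift of most genes one way would not show. The sources used here give neither its version nor the annotation build.

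The platform annotation named the probe sets. Of 27558, 11974 had 1 symbol, 373 had several and were left out (1 of them holding a member symbol), and 15211 had none. Another 6 were left out because symbol and identifier named different genes. For the 966 genes with several probe sets, the one with the highest mean was kept, which left 10901 genes and 72 members. Of the members 66 had an identifier among RefSeq genes of assembly Sscrofa11.1, used for names only.

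All arrays entered 1 limma 3.58.1 model (lmFit and eBayes, R 4.3.3) with a mean per time and 4 residual degrees of freedom, without filter or rescaling. Comparisons were 7, 15 and 30 days with 24h, 15 with 7 days and 30 with 15 days, plus a moderated F test. Calls required a p under 0.05 after Benjamini-Hochberg adjustment across the 10901 genes. On data simulated for 7 days against 24h over 10901 genes, 100 of 100 genes changed 2-fold and 100 of 100 changed 4-fold were called, with 13 unchanged ones. Every simulated gene had the same spread, so these numbers do not give the power for real genes, whose spreads differ.

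The members and lists were chosen with earlier results of these data known. Array values are printed for members called with at least a 2-fold change, the 2 widest-ranging of each role in the F test, the 3 steadiest above the median level, and a few more chosen after their values were seen (SMARCA2, ARID4B, DNMT3B and the markers KRT8, KRT19, OVGP1, MUC1 and CP). Up to 3 called genes are named from each other list, and these are not always its widest-ranging ones. Of the SWI/SNF partners, BCL11A (range of means 2.29) and BICRAL (1.00) ranged wider than ACTL6A (0.85). Of the acetyltransferase partners, GTF3C4 (0.95) and NCOA2 (0.77, highest at 30 days) ranged wider than EPC1 (0.74). In the list of histone demethylases outside the name rule, HR (1.40) ranged wider than JMJD1C (1.17). Alternatives were median centring, further quantile normalization, every probe set tested, probe sets averaged per gene, a filter on the dimmest 25% of genes, trended and robust variance, only the 2 times compared, a replicate block and each array left out in turn. No 2 arrays held identical values.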

Additional observations from a re-analysis of the deposited data

How the results depend on the processing

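Of the 129 calls of members, none reversed under any alternative. Calls lost numbered 6 under median centring, 3 under further quantile normalization, 3 with probe sets averaged per gene, 9 with trended and robust variance, 10 with only the 2 times compared, and 0 without the dimmest 25% of genes or with every probe set tested. The fit of every probe set followed the kept one of each member, so it could not show a differing second probe set. The other one of KAT8 was called higher at 15 and 30 days, and that of KDM5C was not called at 15 days. Calls from 15 to 30 days depended most on the processing. There the 3 members called higher became 9 under median centring, 7 under further quantile normalization, 5 without the dimmest 25% of genes and 7 with only the 2 times compared, and the 3 called lower became 1 under median centring. From 7 to 15 days further quantile normalization gave 8 higher in place of 5. The causes were not tested.

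Leaving out 1 array gave 21 to 29 members lower and 4 to 7 higher at 7 days, 19 to 28 lower and 8 to 11 higher at 15 days, and 22 to 24 lower and 11 to 15 higher at 30 days. From 7 to 15 days it gave 2 to 6 higher and 1 to 5 lower, from 15 to 30 days 0 to 5 higher and 1 to 3 lower, and in the F test 36 to 44. Where an array was left out, the lone array of that time was assumed to vary like the others. All 8 of these fits kept 24 of 37 calls at 7 days, 24 of 40 at 15 days, 32 of 36 at 30 days, 3 of 10 from 7 to 15 days and 1 of 6 from 15 to 30 days.

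Arrays of the same replicate number deviated together only weakly (r = 0.008 to 0.27 over the pairs of times), so the numbers were not taken as pairs. With the replicate block 1 call was lost, that of SMARCD1 at 7 days (adjusted p = 0.0511), and the counts of members lower and higher were 30 and 6 at 7 days, 29 and 11 at 15 days and 25 and 13 at 30 days. Precision is limited by having 2 arrays a time, and dim genes such as DNMT3B and PRMT8 give no evidence of constancy.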
